A study of Mus musculus with 63 samples.

Results

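The serine, folate and ATF4 stress genes described here are 10 genes: Phgdh, Psat1 and Psph of serine synthesis, Shmt2, Mthfd2 and Aldh1l2 of mitochondrial folate metabolism, and Asns, Chac1, Trib3 and Ddit3 of the amino acid stress response. They were found by gene name in count tables of 54752 gene entries. The genes were chosen by what these data had already shown: Aldh1l2 was selected on its value at day 10, where it was the largest fall among called genes with a mean of at least 50 counts in the EtOH libraries, and the other 9 as genes of the same pathway known to be driven by the transcription factor ATF4. The day 10 contrast in standard medium is therefore given as a description, without a test.

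Serine is made from a glycolytic intermediate by phosphoglycerate dehydrogenase (Phgdh), phosphoserine aminotransferase (Psat1) and phosphoserine phosphatase (Psph). In mitochondria, Shmt2 moves a carbon unit from serine onto tetrahydrofolate, Mthfd2 oxidizes it further toward formate, which leaves for purine and thymidylate synthesis, and Aldh1l2 burns it to CO2 while making NADPH, so that proliferating cells such as those of the intestinal crypt draw on the pathway for nucleotides. ATF4 is a bZIP factor translated when kinases that sense amino acid shortage or endoplasmic reticulum stress phosphorylate eIF2alpha, and it switches on the genes of serine and folate metabolism together with asparagine synthetase (Asns), the glutathione-degrading enzyme Chac1, the pseudokinase Trib3, which feeds back on ATF4, and the factor Ddit3 (CHOP).

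The study asked what CDK8 and CDK19, the paralogous kinases of the Mediator complex, do in the mouse intestinal epithelium, and used polyA RNA-Seq of intestinal organoids and of intestinal epithelial cells (IECs) on the C57BL/6 background. Of the libraries, 57 in 19 groups of 3 were used. VillinCreERT2 is a tamoxifen-activated Cre driven by the epithelial Villin promoter, so that only the floxed Cdk8 alleles (Cdk8 fl/fl) were deleted on treatment while Cdk19 ko/ko was constitutive. The time course had VillinCreERT2; Cdk8 fl/fl; Cdk19 ko/ko organoids given 100 nM 4-hydroxytamoxifen (4-OHT) for 24 hours or 0.001% ethanol (EtOH) and collected at day 3, 5, 7 or 10, and EtOH organoids therefore also lacked CDK19. The same genotype and treatments were collected at day 10 in Wnt3-conditioned medium (Wnt3-CM). VillinCreERT2; Cdk8 fl/fl; Cdk19 ko/D173A organoids, whose remaining CDK19 is kinase-dead, were given 4-OHT or EtOH and collected at day 7. A further 5 organoid groups were all given 4-OHT and collected at day 7: VillinCreERT2, VillinCreERT2; Cdk8 fl/fl (CDK8-deficient), C57BL/6, Cdk8 fl/fl; Cdk19 ko/ko without Cre (CDK19-deficient), and VillinCreERT2; Cdk8 fl/fl; Cdk19 ko/ko (CDK8/19-deficient). IECs came from VillinCreERT2 and VillinCreERT2; Cdk8 fl/fl; Cdk19 ko/ko mice given tamoxifen at 80 mg/kg daily for 5 days and collected 14 days later. No Cre-only line was followed over time with EtOH and 4-OHT, so that the effect of 4-OHT with active Cre and that of the deletion cannot be told apart in the time course. The column names give the time course and Wnt3-CM organoids the same line number and the CDK8/19-deficient group another, although the genotype is the same, and the other genotypes are taken as 1 line each. The labels do not say whether replicates were separate cultures, and p-values then measure only the spread between these libraries.

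Total counts ran from 15485959 to 32909565 per library with a median of 19374952. All 10 genes passed the low-count filter in every comparison. Whole-gene counts did not check the deletions: Cdk8 read 49.6, 47.7 and 50.2 CPM in the EtOH and 45.5, 42.8 and 47.2 CPM in the 4-OHT libraries at day 7, and Cdk19 likewise read 24.7 to 26.0 CPM in CDK19-deficient against 28.7 to 34.5 CPM in C57BL/6 organoids. The counts are not split by exon. Marker genes of the epithelium were present in every library, and the summed level of 8 immune markers stayed at 0.515 to 1.19 CPM in the 4-OHT and 0.660 to 1.26 CPM in the EtOH organoids at day 7. These are bulk samples, in which fewer cells of a type and less RNA per cell cannot be told apart. CPM here are counts scaled to library size with edgeR's TMM factors within each table, a gene was called when its edgeR quasi-likelihood adjusted p was under 0.05 and its fold change over 1.5, and ± gives the SE of a log2 fold change or the SD over the 3 libraries of a CPM mean.

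On mm10 the serine synthesis genes lie at chr3:98313170-98339990 (Phgdh, minus strand), chr19:15904678-15947337 (Psat1, minus) and chr5:129765558-129787449 (Psph, minus). The mitochondrial folate genes lie at chr10:127517123-127522444 (Shmt2, minus), chr6:83305691-83325908 (Mthfd2, minus) and chr10:83487450-83534140 (Aldh1l2, minus). The stress genes lie at chr6:7675169-7693254 (Asns, minus), chr2:119351229-119354381 (Chac1, plus), chr2:152337422-152344032 (Trib3, minus) and chr10:127290774-127296288 (Ddit3, plus). All 10 are protein-coding and their values are sums over exons. The exons of Aldh1l2 share 14.1% of their bases with D10Wsu102e on the opposite strand and those of Psph 10.4% with Cct6a on the opposite strand, and since the sources used here do not state whether counting used strand, reads there cannot be assigned to either gene with certainty. Ddit3 shares 4.0% of its exon bases with Mars, and a second entry of the same symbol had a highest count of 0 in any library.

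Since these genes are known ATF4 targets, their promoters were read for the letters TGATGNAAN, a loose form of the element bound by ATF4 with C/EBP partners, on both strands of a window from 250 bases before to 50 after each RefSeq transcription start (GRCm38.p6). Windows were found for 9 of the 10 genes. The letters were present in 3 of the 9, against 3.95% of all 32851 windows, and the stricter TGATGCAAT, which is contained in the loose form, was in 0 of the 9 against 0.192% of all windows. The 3 windows are printed 5′ to 3′ on the gene's strand to show where the match sits, with the match in capitals: Asns at chr6:7693160-7693459 on the minus strand, starting at position -23 from the start, Chac1 at chr2:119350992-119351291 on the plus strand, starting at -194, and Trib3 at chr2:152344011-152344310 on the minus strand, starting at 14. In Chac1 and Trib3 the match is on the opposite strand, so that its reverse complement is printed. A match is a description of the letters only, and a window without one says nothing of binding elsewhere.
Asns: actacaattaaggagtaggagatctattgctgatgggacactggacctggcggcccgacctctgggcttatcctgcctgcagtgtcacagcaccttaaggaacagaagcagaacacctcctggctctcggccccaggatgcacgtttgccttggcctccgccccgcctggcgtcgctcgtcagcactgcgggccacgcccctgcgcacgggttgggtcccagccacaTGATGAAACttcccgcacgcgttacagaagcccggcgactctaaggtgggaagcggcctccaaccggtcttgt
Chac1: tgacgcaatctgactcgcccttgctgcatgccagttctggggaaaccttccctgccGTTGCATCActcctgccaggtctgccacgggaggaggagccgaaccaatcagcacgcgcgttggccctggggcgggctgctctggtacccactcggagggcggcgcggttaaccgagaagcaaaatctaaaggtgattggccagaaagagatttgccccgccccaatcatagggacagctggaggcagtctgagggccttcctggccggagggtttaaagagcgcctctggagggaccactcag
Trib3: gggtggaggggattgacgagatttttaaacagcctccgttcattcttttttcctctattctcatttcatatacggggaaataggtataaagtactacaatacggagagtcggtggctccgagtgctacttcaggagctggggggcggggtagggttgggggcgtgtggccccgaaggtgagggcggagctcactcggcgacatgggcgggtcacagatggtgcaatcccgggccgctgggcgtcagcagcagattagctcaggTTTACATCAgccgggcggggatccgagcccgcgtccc

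Per kilobase of exon, the levels at day 7 in EtOH organoids differed widely between the genes. Shmt2 stood highest at 86.2 CPM per kb, followed by Psat1 at 55.5 and Asns at 53.9 CPM per kb. Trib3, Chac1, Mthfd2, Phgdh and Ddit3 lay between 21.1 and 8.07 CPM per kb. Psph and Aldh1l2 were scarce, at 1.43 and 0.488 CPM per kb. Aldh1l2 therefore rests on 44, 89 and 86 reads per library at that day, which limits the precision of its values.

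Some of the 10 genes rose in EtOH organoids with time in culture. From day 3 to day 5, 4 of the 10 genes were higher (Chac1, Aldh1l2, Trib3 and Psat1) and 0 lower, against 2.82% of all genes called higher and 9.14% called lower. Chac1 went from 8.58, 7.48 and 8.03 CPM to 17.4, 17.5 and 23.0 CPM (log2 fold change 1.26 ± 0.21, edgeR adjusted p = 8.96e-05). Trib3 went from 17.1, 14.0 and 16.1 CPM to 29.2, 32.4 and 35.8 CPM (log2 fold change 1.05 ± 0.14, edgeR adjusted p = 5.80e-06). Aldh1l2 rose from 0.756, 1.01 and 0.798 CPM to 1.57, 1.92 and 2.65 CPM (log2 fold change 1.26 ± 0.40, edgeR adjusted p = 0.0149). The groups did not overlap for these 3 genes, but EtOH replicate 3 at day 5 stood above the other two for most of the 10 genes, for instance at 239 CPM against 134 and 152 CPM for Psat1, and without it the count fell from 4 to 2, with Aldh1l2 (adjusted p = 0.0790) and Psat1 (log2 fold change 0.30, adjusted p = 0.270) no longer past the test. The count was also 2 without EtOH replicate 1 or replicate 3 at day 3. The call of Psat1 was lost under 6 other settings too, while Mthfd2 was called higher without EtOH replicate 1 or 2 at day 5 (log2 fold change 0.69 and 0.61). Summed markers also rose from day 3 to day 5, from 3791 to 4427 CPM to 5043 to 6203 CPM for Paneth cells. Enterocyte markers went from 5320 to 5751 CPM to 6658 to 9491 CPM and proliferation markers from 950 to 1016 CPM to 1028 to 1237 CPM. Stem markers overlapped, and the part of these markers in the 10 genes was not tested. Between day 5 and day 7, edgeR called 0 of the 10 genes and 0.285% and 0.285% of all genes higher and lower, with 2701 genes at an unadjusted p under 0.05 over the whole table. From day 7 to day 10, given without a test, Phgdh (log2 fold change 1.09) and Psat1 (0.88) were past both cutoffs upward and Chac1 (-1.23) and Ddit3 (-0.63) downward, beside 9.39% and 13.9% of all genes.

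After 4-OHT, Aldh1l2, Psat1 and Asns were higher than in the EtOH controls at day 3 and lower at day 5 and day 7, Phgdh, Shmt2, Mthfd2 and Chac1 were lower at day 5 and day 7 without passing at day 3, and Psph was not called at these days. At day 3, 3 of the 10 genes were higher (Aldh1l2, Asns and Psat1) and 0 lower, against 6.42% of all tested genes called higher and 5.95% called lower. The median of the log2 fold changes was 0.29 for the 10 genes and -0.02 for all genes. At day 5, 8 of 10 were lower and 0 higher (background 4.62% lower, 8.58% higher), with medians of -0.90 and 0.0012. At day 7, 7 of 10 were lower and 0 higher (background 9.25% lower, 9% higher), with medians of -0.91 and -0.0087. At day 10, described only, 7 were past the cutoffs downward and Psph upward, beside 6.92% and 8.86% of all genes, with medians of -1.07 and 0.02. The plot of CPM over the time course shows the crossing between day 3 and day 5.

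**Figure D1:**
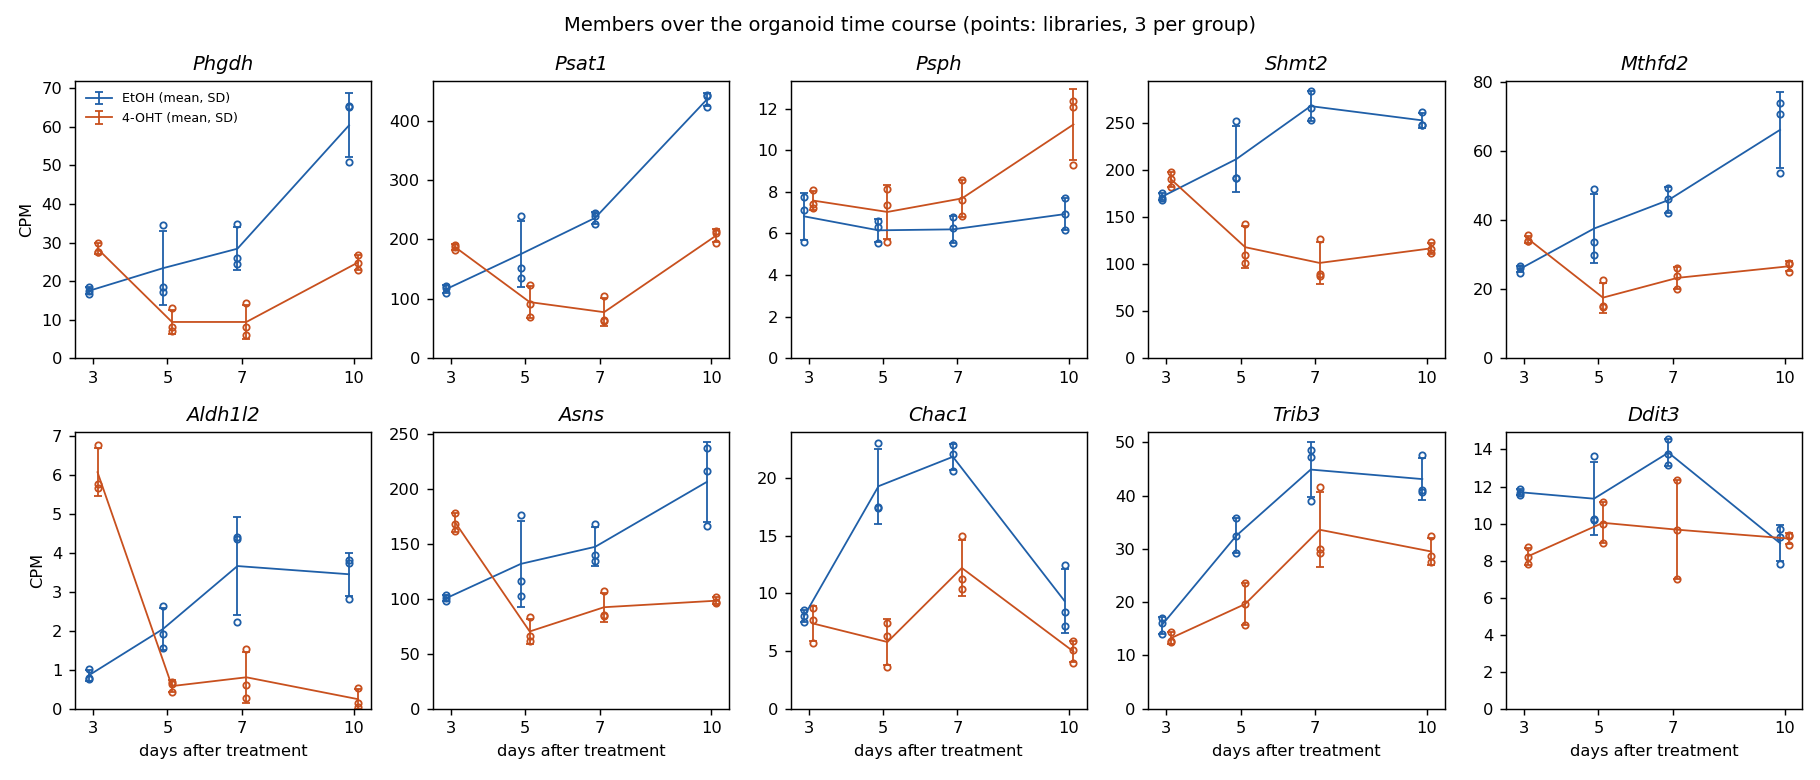
CPM of the 10 genes (y axes, linear, starting at 0, each gene on its own scale) against days after treatment (x axis) in EtOH (blue) and 4-OHT (orange) time course organoids. Circles are libraries, 3 per group, and lines and bars give the mean and SD. Phgdh, Psat1, Shmt2, Mthfd2, Aldh1l2 and Asns start higher or level in 4-OHT organoids at day 3 and lie lower at every later day, while Psph does not fall.

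Within serine synthesis, the first and the middle enzyme fell and the last did not. Phgdh read 18.3, 17.4 and 16.5 CPM with EtOH and 27.6, 30.0 and 27.6 CPM with 4-OHT at day 3 (log2 fold change 0.70 ± 0.28, edgeR adjusted p = 0.0582), so that every 4-OHT library was above every EtOH library without passing the test, and under 6 alternative fits, DESeq2 among them (adjusted p = 0.0490), it did pass. At day 5 it read 18.5, 17.1 and 34.4 CPM against 6.94, 8.19 and 13.0 CPM (log2 fold change -1.32 ± 0.30, edgeR adjusted p = 0.00220), and at day 7 26.0, 24.5 and 34.7 CPM against 5.93, 8.03 and 14.2 CPM (log2 fold change -1.60 ± 0.30, edgeR adjusted p = 2.58e-04), a fall of 3.02-fold. At day 10 its levels were 50.8, 65.3 and 65.1 CPM and 23.0, 24.7 and 26.8 CPM.

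Psat1 rose at day 3, from 121, 109 and 118 CPM with EtOH to 182, 188 and 191 CPM with 4-OHT (log2 fold change 0.68 ± 0.21, edgeR adjusted p = 0.0191), a call that was lost without EtOH replicate 2 (adjusted p = 0.0619). It fell at day 5, from 134, 152 and 239 CPM to 69.0, 90.5 and 124 CPM (log2 fold change -0.89 ± 0.21, edgeR adjusted p = 0.00346), and at day 7, from 239, 225 and 244 CPM to 63.3, 64.1 and 105 CPM (log2 fold change -1.61 ± 0.22, edgeR adjusted p = 1.10e-05). At day 10 it read 422, 442 and 442 CPM with EtOH and 214, 210.5 and 193 CPM with 4-OHT, so that both arms stood above their day 7 levels and did not overlap. In a fit of the day 5 groups alone the day 5 fall had the same size without passing the test (adjusted p = 0.0870). Psph ranged from 5.57 to 7.76 CPM with EtOH and 7.21 to 8.10 CPM with 4-OHT at day 3 to 5.54 to 6.80 CPM and 6.84 to 8.58 CPM at day 7, where the groups did not overlap but the test was not passed (log2 fold change 0.31 ± 0.15, edgeR adjusted p = 0.103). Its day 10 levels were 6.15, 7.68 and 6.95 CPM and 9.27, 12.4 and 12.1 CPM, the only value of the 10 genes past the cutoffs upward at that day.

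Of the mitochondrial folate genes, Aldh1l2 had the largest changes at day 3 and day 7. Aldh1l2, the formyltetrahydrofolate dehydrogenase of mitochondria, rose 7.06-fold at day 3, from 0.756, 1.01 and 0.798 CPM with EtOH to 5.66, 6.77 and 5.78 CPM with 4-OHT (log2 fold change 2.82 ± 0.35, edgeR adjusted p = 4.98e-07). At day 5 it read 1.57, 1.92 and 2.65 CPM against 0.694, 0.420 and 0.633 CPM (log2 fold change -1.81 ± 0.43, edgeR adjusted p = 0.00148). At day 7 it read 2.22, 4.40 and 4.36 CPM against 0.269, 0.617 and 1.54 CPM (log2 fold change -2.17 ± 0.37, edgeR adjusted p = 2.86e-05). The arms did not overlap at any of these days, and the day 7 values came from 5, 12 and 29 reads per 4-OHT library. Without 4-OHT replicate 3, the highest of its group, the day 7 log2 fold change was -3.03, and it ran up to -1.77 as other libraries were left out. At day 10, where it was selected, it read 2.81, 3.74 and 3.80 CPM with EtOH and 0.533, 0.0527 and 0.155 CPM with 4-OHT, from 58, 74 and 75 and 10, 1 and 3 reads. Its day 10 log2 fold change of -3.78 stood first among falls past both cutoffs with a mean of at least 50 counts in the EtOH libraries. That rank is the rule by which it was picked and not a result. Next in that order were Pla2g2a (-3.42), Ccl6 (-3.17), Mptx1 (-3.03) and Cyp26b1 (-2.83).

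Shmt2, the mitochondrial serine hydroxymethyltransferase, hardly moved at day 3, at 175, 171 and 168 CPM with EtOH and 198, 182 and 190.2 CPM with 4-OHT (log2 fold change 0.15 ± 0.13, edgeR adjusted p = 0.403). It was lower at day 5, at 101, 109.8 and 143 against 191, 191 and 252 CPM (log2 fold change -0.84 ± 0.13, edgeR adjusted p = 4.53e-05), and at day 7, at 87.6, 89.1 and 127 against 266, 253 and 284 CPM (log2 fold change -1.40 ± 0.13, edgeR adjusted p = 3.94e-08). Mthfd2, the dehydrogenase and cyclohydrolase that follows it, was lower at day 5, at 14.8, 15.2 and 22.5 against 29.9, 33.7 and 48.9 CPM (log2 fold change -1.10 ± 0.17, edgeR adjusted p = 5.04e-05), and at day 7, at 23.7, 19.9 and 26.1 against 41.9, 46.0 and 49.3 CPM (log2 fold change -0.98 ± 0.17, edgeR adjusted p = 6.47e-05). For both genes every 4-OHT library lay below every EtOH library at day 5 and day 7. The day 10 levels were 123, 116 and 111 against 248, 248 and 262 CPM for Shmt2, with the arms again apart, and 24.9, 27.5 and 27.3 against 53.6, 70.7 and 73.9 CPM for Mthfd2. At day 3 Mthfd2 read 33.8, 35.6 and 33.9 against 24.7, 26.0 and 26.6 CPM, a difference that did not pass the test (log2 fold change 0.42 ± 0.17, edgeR adjusted p = 0.0575).

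Among the stress genes, Asns followed the folate genes and the others did not move as a block. Asns rose at day 3, from 104, 101 and 97.9 CPM with EtOH to 162, 179 and 168 CPM with 4-OHT (log2 fold change 0.75 ± 0.17, edgeR adjusted p = 0.00216). It fell at day 5, from 117, 102 and 177 to 61.9, 66.1 and 83.2 CPM (log2 fold change -0.91 ± 0.17, edgeR adjusted p = 5.45e-04), and at day 7, from 134, 140.3 and 168 to 84.3, 85.6 and 107 CPM (log2 fold change -0.67 ± 0.17, edgeR adjusted p = 0.00366), where the fold was under the cutoff without EtOH replicate 3 (log2 fold change -0.57). Its day 10 levels were 166, 217 and 237 and 97.0, 96.2 and 102 CPM. EtOH replicate 3 stood above the other 2 libraries for Asns at day 5, day 7 and day 10.

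Chac1 did not pass the test at day 3, at 8.58, 7.48 and 8.03 CPM with EtOH and 8.73, 7.72 and 5.73 CPM with 4-OHT (log2 fold change -0.12 ± 0.23, adjusted p = 0.733). It fell 3.33-fold at day 5, from 17.4, 17.5 and 23.0 to 3.63, 6.30 and 7.44 CPM (log2 fold change -1.74 ± 0.22, edgeR adjusted p = 2.59e-06), and 1.79-fold at day 7, from 20.6, 22.8 and 22.1 to 15.0, 10.3 and 11.3 CPM (log2 fold change -0.84 ± 0.20, edgeR adjusted p = 0.00154). The EtOH arm rose between day 3 and day 5 while the 4-OHT arm had its higher values at day 7. Trib3 was lower at day 5, at 19.7, 15.7 and 23.5 against 29.2, 32.4 and 35.8 CPM (log2 fold change -0.72 ± 0.14, edgeR adjusted p = 2.43e-04), and under the fold cutoff at day 7, at 41.7, 29.9 and 29.2 against 48.5, 47.2 and 38.9 CPM (log2 fold change -0.42 ± 0.13, adjusted p = 0.0112). Ddit3 was under the fold cutoff at every day, at 7.80, 8.72 and 8.21 against 11.5, 11.7 and 11.9 CPM at day 3 (log2 fold change -0.50 ± 0.14, adjusted p = 0.00717) and 12.3, 9.67 and 6.99 against 13.2, 14.6 and 13.8 CPM at day 7 (log2 fold change -0.52 ± 0.14, adjusted p = 0.00342). Both Trib3 (-0.61) and Ddit3 (-0.74) were called lower at day 7 without 4-OHT replicate 1, the highest of its group for both genes.

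The change of the response between days was tested by itself. The response at day 5 was lower than that at day 3 for 7 of the 10 genes and higher for 0, against 9.01% of all genes lower and 11.2% higher. The difference in log2 fold change was -4.63 ± 0.55 for Aldh1l2 (edgeR adjusted p = 3.97e-07), -2.02 ± 0.41 for Phgdh (8.66e-04) and -1.66 ± 0.24 for Asns (4.54e-05), and it also passed for Chac1, Psat1, Mthfd2 and Shmt2. Psph, Ddit3 and Trib3 did not pass, although Trib3 did without 4-OHT replicate 3 at day 5 (-0.65). From day 5 to day 7 the response differed for Chac1 alone (0.89 ± 0.30, adjusted p = 0.0393), against 3.8% of all genes higher and 5.01% lower, and the count went from 0 to 3 as single libraries were left out. The call for Chac1 was lost without any 1 of the EtOH replicates 1, 2 and 3 at day 7, EtOH replicate 3 at day 5, 4-OHT replicates 1 and 2 at day 5 or 4-OHT replicate 1 at day 7, with adjusted p between 0.0515 and 0.101. Shmt2 and Psat1, in contrast, were called lower without EtOH replicate 3 at day 5 (-0.70 and -1.01), 4-OHT replicate 1 at day 5 (-0.66 and -0.90) or 4-OHT replicate 3 at day 7 (-0.76 and -1.00), and Shmt2 also without 4-OHT replicate 2 at day 5 (-0.61).

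The lower levels at day 5 and day 7 moved with markers of crypt cells. At day 5, 7 of 7 Paneth cell markers, 4 of 6 stem cell markers and 6 of 8 proliferation markers were lower with 4-OHT, and the summed proliferation markers read 611 to 792 CPM against 1028 to 1237 CPM. At day 7, 7 of 7 Paneth, 5 of 6 stem and 7 of 8 proliferation markers were lower, and the summed proliferation markers read 533 to 824 CPM against 1097 to 1280 CPM. At day 3, 0 of 7 Paneth and 0 of 8 proliferation markers were called in either direction, 2 of 6 stem markers were higher and 6 of 8 enterocyte markers were lower. The summed proliferation markers read 1147 to 1216 CPM with 4-OHT and 950.3 to 1016 CPM with EtOH at day 3, and the stem markers 2316 to 2392 and 1906 to 1922 CPM, both without overlap and higher with 4-OHT. Of the 8 enterocyte markers, 2 were higher and 2 lower at day 5, and 2 higher and 0 lower at day 7, where they summed to 9662 to 11160 CPM with 4-OHT and 7265 to 8917 CPM with EtOH. The 6 markers of pancreatic acinar cells, of which Cpa1, Cela3b and Amy2a5 were at 0 in every library, summed to 28.5 to 34.0 CPM with 4-OHT and 12.7 to 17.5 CPM with EtOH at day 7, and 1 of the 2 tested was higher. The part of these cell types in the levels of the serine and folate genes was not tested. The counts held when libraries were left out: 8 genes were lower at day 5 without any 1 library, EtOH replicate 3 included, and from 6 to 9 at day 7.

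In Wnt3-CM at day 10, 7 of the 10 genes were lower with 4-OHT and 0 higher, against 7.42% of all genes lower and 9.45% higher, with medians of -0.83 over the 10 genes and 0.0007 over all genes. These libraries are not those of the contrast on which Aldh1l2 was selected, but they share its line number, day and treatments. The 10 genes were also chosen with earlier results of these data known, so these values are not an independent check. Aldh1l2 fell 8.14-fold, from 37.4, 38.8 and 36.1 CPM with EtOH to 4.37, 4.32 and 5.07 CPM with 4-OHT (log2 fold change -3.03 ± 0.10, edgeR adjusted p = 1.61e-15). Ddit3 fell from 88.3, 88.2 and 93.1 to 21.5, 14.6 and 18.8 CPM (log2 fold change -2.30 ± 0.10, edgeR adjusted p = 1.12e-11) and was the next largest fall of the 10. Trib3 fell from 283, 309 and 305 to 94.6, 73.0 and 77.9 CPM (log2 fold change -1.87 ± 0.08, edgeR adjusted p = 9.47e-13). The arms did not overlap for any of the 10 genes but Psph. Over all genes such separation was not counted, and 7414 of 13745 genes had an edgeR unadjusted p under 0.05.

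Phgdh fell from 115, 125 and 133 to 49.0, 46.4 and 47.4 CPM (log2 fold change -1.38 ± 0.07, edgeR adjusted p = 9.47e-13). Psat1 fell from 662, 686 and 671 to 413, 360.3 and 392 CPM (log2 fold change -0.79 ± 0.07). Psph stayed within its spread at 9.67, 10.3 and 7.95 and 11.9, 10.3 and 10.4 CPM (log2 fold change 0.22 ± 0.12, adjusted p = 0.147). Asns (-0.76 ± 0.07) and Mthfd2 (-0.87 ± 0.08) fell as well. Shmt2, at 259, 230.0 and 221 against 365, 336 and 347 CPM (log2 fold change -0.56 ± 0.07), and Chac1, at 47.3, 37.0 and 40.8 against 49.7, 49.1 and 50.7 CPM (-0.26 ± 0.08, adjusted p = 0.0143), were under the fold cutoff. Shmt2 passed it without EtOH replicate b (-0.58) or 4-OHT replicate a (-0.63). The summed proliferation markers were not lower here, at 839 to 966 CPM with 4-OHT and 798 to 823 CPM with EtOH, while 7 of 7 Paneth markers were lower and 6 of 8 enterocyte markers higher. The pancreatic acinar markers summed to 9.47 to 16.7 CPM with 4-OHT and 0.579 to 1.68 CPM with EtOH, with Cpa1, Cela3b and Amy2a5 at 0 and both tested markers higher. The part of these markers in the values of the 10 genes was not tested. Columns of this table carry no replicate number of the labels, so its libraries are named a, b and c.

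**Figure D2:**
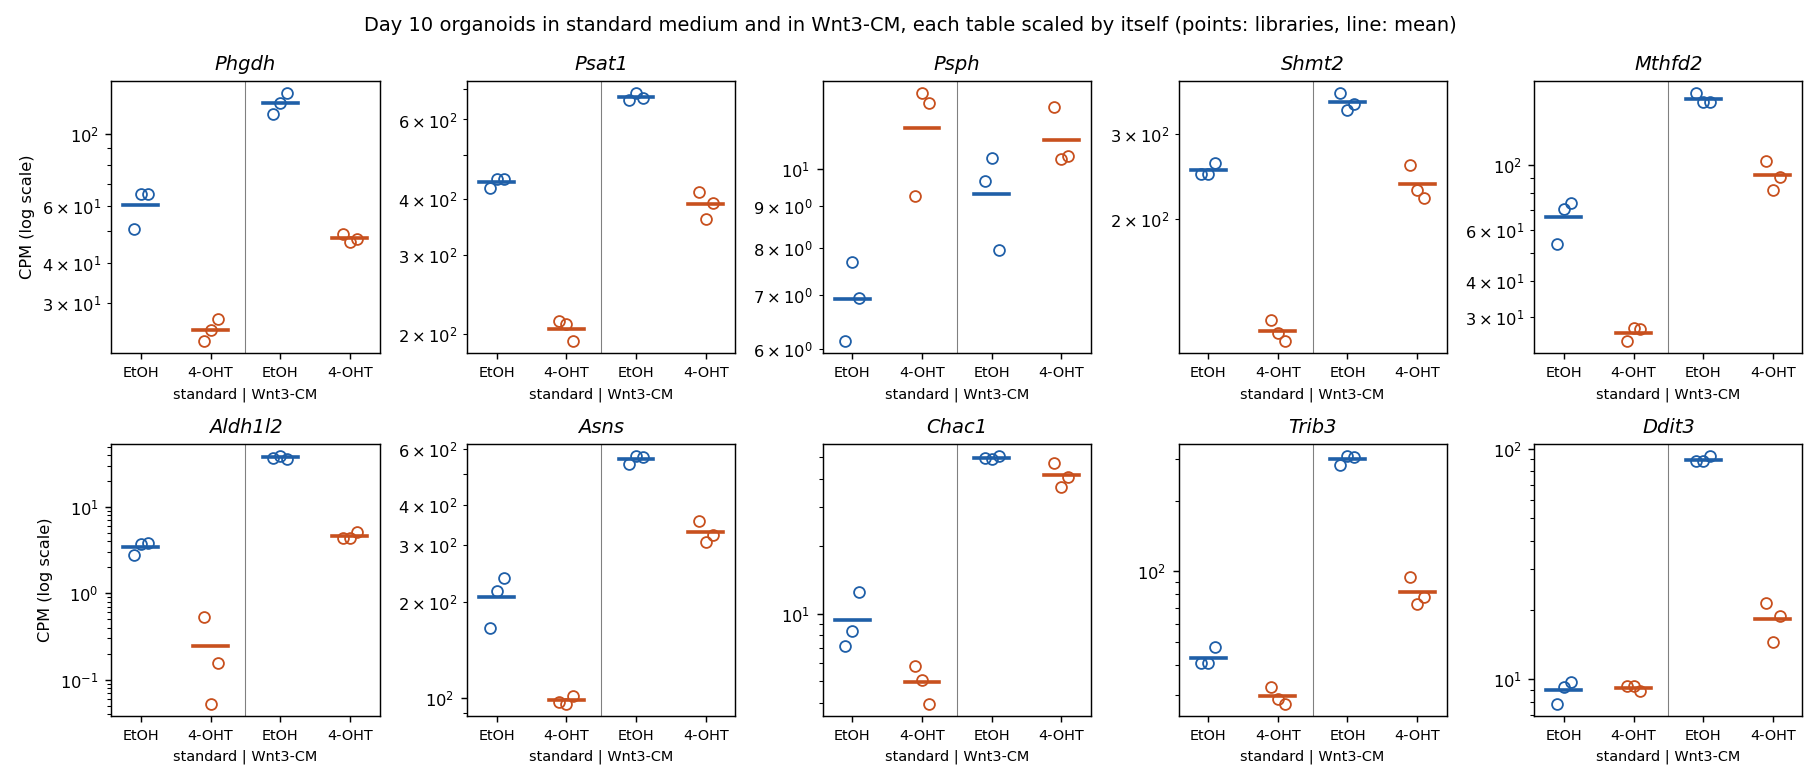
CPM (y axes, log scale, not starting at 0) of the 10 genes at day 10 in EtOH (blue) and 4-OHT (orange) organoids, in standard medium left and Wnt3-CM right of the vertical line, each table scaled by itself. Circles are libraries and bars the mean of 3. Ddit3, Trib3 and Chac1 are higher in Wnt3-CM with EtOH, and the gap between the arms is wide for Ddit3 and Trib3 in Wnt3-CM.

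Levels in EtOH organoids also differed between the media. With EtOH at day 10, the ratio of the mean level in Wnt3-CM to that in standard medium was 10.1 for Ddit3, 6.93 for Trib3 and 5.33 for Chac1. It lay between 1.34 (Psph) and 2.70 (Asns) for the other 6 genes. With 4-OHT the ratio was larger than with EtOH for Chac1 (8.40), Mthfd2 (3.46), Asns (3.34), Shmt2 (2.03) and Psat1 (1.89). It was smaller for Trib3 (2.77), Ddit3 (1.99), Phgdh (1.92) and Psph (0.967). For Aldh1l2 no ratio is given, since its day 10 levels in standard medium are the values it was selected on. These levels come from tables scaled separately, so medium and table cannot be told apart, and no test was made.

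For 5 of the 10 genes, all of serine and folate metabolism, the response to 4-OHT differed with kinase-dead CDK19 from that without CDK19. The columns of this table name no genotype and were given to the Cdk19 ko/D173A groups because those were the only EtOH and 4-OHT groups in the labels without other columns, which limits every value of this comparison. Between 4-OHT and EtOH at day 7, edgeR called 0 of the 10 genes, against 6.05% of all genes higher and 6.25% lower and with 6012 genes at an unadjusted p under 0.05, and DESeq2 called 0 of the 10 too. The log2 fold changes were below 0 for 8 of the 10 genes, with medians of -0.31 for the 10 and 0.0053 for all genes. In 6 of them (Phgdh, Psat1, Shmt2, Mthfd2, Asns and Ddit3) every 4-OHT library lay below every EtOH library. The share of all genes separated in this way was not counted, so the 6 cannot be set against it. Phgdh read 11.6, 10.5 and 10.5 CPM against 13.1, 13.6 and 15.0 CPM (log2 fold change -0.36 ± 0.10, adjusted p = 0.0272). Shmt2 read 82.3, 67.8 and 76.4 against 105, 101 and 102 CPM (-0.45 ± 0.08, 0.00193), and both genes were apart from their controls but under the fold cutoff. Aldh1l2 read 2.66, 2.32 and 2.01 against 1.92, 1.49 and 1.67 CPM (0.46 ± 0.20, adjusted p = 0.115), with every 4-OHT library above every EtOH library. Psat1 read 59.9, 39.6 and 40.7 against 61.9, 67.2 and 62.7 CPM, and without 4-OHT replicate a it was called lower (log2 fold change -0.67, adjusted p = 7.53e-05).

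The difference between this response and that of Cdk19 ko/ko organoids at day 7 was tested in a joint fit. The response was higher with kinase-dead CDK19 for 5 of the 10 genes and lower for 0, against 4.9% of all genes higher and 6.25% lower. It differed by 2.64 ± 0.54 on the log2 scale for Aldh1l2 (edgeR adjusted p = 0.00328), by 1.24 ± 0.33 for Phgdh (0.0188), by 1.16 ± 0.28 for Psat1 (0.0149), by 0.96 ± 0.16 for Shmt2 (8.98e-04) and by 0.65 ± 0.16 for Mthfd2 (0.00948). For Asns (0.37 ± 0.14), Chac1 (0.47 ± 0.23), Trib3 (0.23 ± 0.19), Ddit3 (0.28 ± 0.22) and Psph (-0.08 ± 0.19) the test was not passed. The value of Aldh1l2 ran from 2.22 to 3.48 as single libraries were left out, the highest without 4-OHT replicate 3 of the Cdk19 ko/ko arm. Without 4-OHT replicate 2 of that arm the count fell from 5 to 3, with Phgdh (adjusted p = 0.0597) and Mthfd2 (log2 difference 0.55, under the fold cutoff) no longer called, and Mthfd2 was also lost without 4-OHT replicate a of the kinase-dead arm (0.52). The EtOH controls also differed, at 13.9 and 28.4 CPM for Phgdh and 63.9 and 236 CPM for Psat1 with the tables scaled separately, and allele, line and table cannot be told apart. Markers moved with 4-OHT here as well: 6 of 7 Paneth and 5 of 6 stem markers were lower, while 1 of 8 proliferation markers was lower. The summed proliferation markers read 570 to 661 CPM with 4-OHT and 746 to 842 CPM with EtOH, without overlap. The 8 enterocyte markers summed to 18022 to 21249 CPM with 4-OHT and 13430 to 14117 CPM with EtOH, and 5 of them were higher. The 6 pancreatic acinar markers summed to 143 to 166 and 31.7 to 38.6 CPM, with Cpa1, Cela3b and Amy2a5 at 0 in every library and 1 of the 2 tested called higher. The part of these cell types in these values was not tested.

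**Figure D3:**
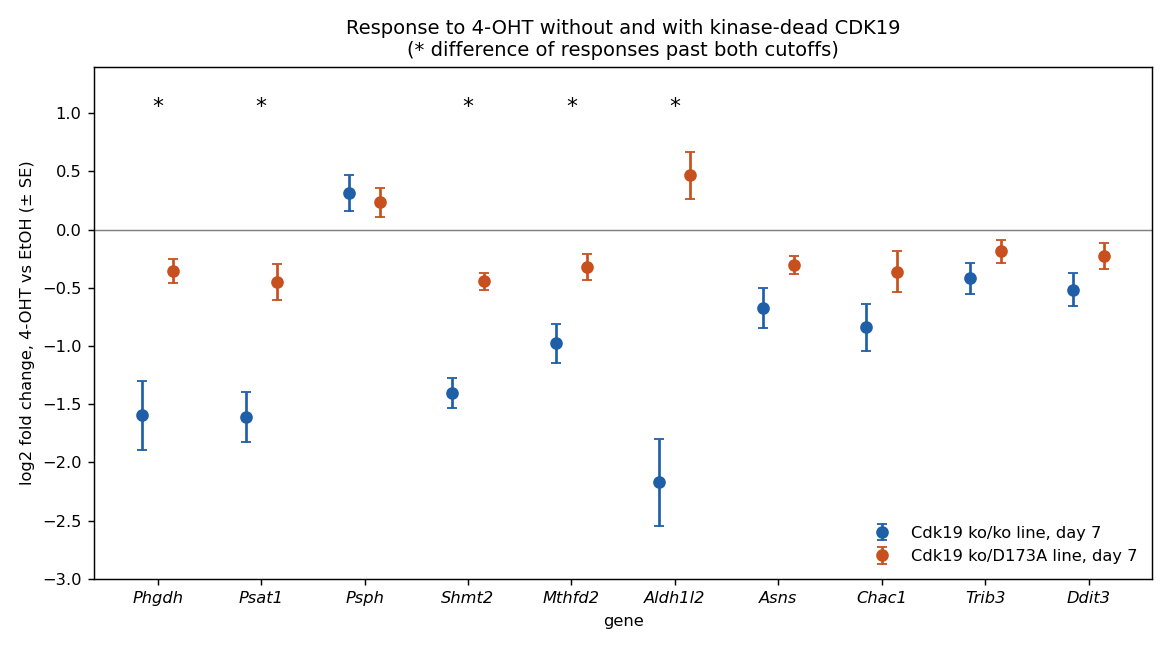
Log2 fold change between 4-OHT and EtOH at day 7 (y axis, ± SE) for each gene (x axis) in Cdk19 ko/ko (blue) and Cdk19 ko/D173A (orange) organoids, 3 libraries an arm. Stars mark the 5 genes whose responses differed between the lines, and the orange points lie between -0.45 and 0.46.

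Across the 5 organoid groups given 4-OHT and collected at day 7, the difference depended on the control. The columns of the VillinCreERT2 and CDK8-deficient groups are named in 1 form and hold 20424462 to 21449826 counts, while those of the C57BL/6, CDK19-deficient and CDK8/19-deficient groups are named in another and hold 15485959 to 18440256. Against VillinCreERT2, 9 of the 10 genes were lower in CDK8/19-deficient organoids and 0 higher (background 7.95% lower, 11.5% higher, median -1.04), with Shmt2 under the fold cutoff. Asns fell under it too without CDK8/19-deficient replicate 1 (-0.54) or 3 (-0.56). C57BL/6 organoids, which carry no Cre and no deletion, were also lower than VillinCreERT2 for 7 of the 10 genes and higher for 0 (background 10.9% lower, 15.5% higher, median -0.70). All 10 genes lay below the VillinCreERT2 libraries in both comparisons, but how many of all genes were so separated was not counted. By edgeR, 8753 and 9808 of 15125 genes had an unadjusted p under 0.05 in these 2 comparisons. In that of C57BL/6, Mthfd2 fell under the fold cutoff without C57BL/6 replicate 1 or 2 or VillinCreERT2 replicate 1 or 3 (-0.57 to -0.58), and Phgdh without VillinCreERT2 replicate 3 (-0.58). These comparisons share the VillinCreERT2 libraries and cross the 2 forms of column name, so line, genotype and whatever the form stands for cannot be told apart. Within the second form, in comparisons added after seeing the data, 2 genes were lower and 2 higher in CDK8/19-deficient than in C57BL/6 organoids (background 9.41% lower, 8.66% higher) and 2 lower and 1 higher than in CDK19-deficient organoids (background 4.26% lower, 6.33% higher). Crypt markers moved with these comparisons: the 7 Paneth markers summed to 858 to 896 CPM in CDK8/19-deficient, 2794 to 2912 CPM in VillinCreERT2, 4971 to 6176 CPM in C57BL/6 and 3992 to 4393 CPM in CDK19-deficient organoids. The 6 stem markers summed to 429 to 584, 1189 to 1420, 1259 to 1319 and 781 to 927 CPM in the same order. In CDK8/19-deficient organoids 6 of 7 Paneth and 5 of 6 stem markers were lower than in VillinCreERT2, while in C57BL/6 5 of 7 Paneth and 2 of 6 stem markers were higher than in VillinCreERT2. Their part in the levels of the 10 genes was not tested.

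Phgdh and Psat1 were the genes that stayed lower against C57BL/6. Phgdh read 32.9, 29.4 and 36.7 CPM in VillinCreERT2, 19.5, 21.5 and 21.4 CPM in C57BL/6, 14.1, 12.8 and 16.8 CPM in CDK19-deficient and 13.0, 12.6 and 12.7 CPM in CDK8/19-deficient organoids. The log2 fold change of the latter was -1.37 ± 0.10 against VillinCreERT2 (edgeR adjusted p = 8.86e-12), -0.71 ± 0.10 against C57BL/6 (1.88e-06) and -0.19 ± 0.10 against CDK19-deficient organoids (0.163), where the groups overlapped. Psat1 read 192, 187 and 178, 111, 117 and 105, 93.3, 88.1 and 97.8 and 65.4, 67.9 and 65.5 CPM in the same 4 groups, without overlap between any of them, and its log2 fold change was -1.49 ± 0.06, -0.74 ± 0.06 and -0.49 ± 0.06 against the 3 controls, the last under the fold cutoff. Mthfd2 (-0.22 ± 0.07), Asns (-0.21 ± 0.07) and Shmt2 (-0.26 ± 0.06) were under the fold cutoff against C57BL/6, as was Ddit3 (-0.41 ± 0.09).

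Aldh1l2 changed direction with the control. It read 15.7, 14.0 and 19.0 CPM in VillinCreERT2, 3.74, 2.78 and 1.45 CPM in C57BL/6, 5.09, 3.31 and 4.08 CPM in CDK19-deficient and 5.79, 7.50 and 5.75 CPM in CDK8/19-deficient organoids. CDK8/19-deficient organoids were thus lower than VillinCreERT2 (log2 fold change -1.35 ± 0.17, edgeR adjusted p = 2.04e-06) but higher than C57BL/6 (log2 fold change 1.27 ± 0.23, edgeR adjusted p = 1.44e-04) and CDK19-deficient organoids (log2 fold change 0.61 ± 0.21, edgeR adjusted p = 0.0312), the last call being lost without CDK19-deficient replicate 2 or 3 or CDK8/19-deficient replicate 2. Trib3 likewise read 48.3, 50.0 and 52.1, 14.4, 19.4 and 16.4 and 27.3, 26.4 and 23.5 CPM in VillinCreERT2, C57BL/6 and CDK8/19-deficient organoids, lower than the first (-0.96 ± 0.08) and higher than the second (0.62 ± 0.09), although the fold against C57BL/6 was under the cutoff without C57BL/6 replicate 1 (0.53) or CDK8/19-deficient replicate 1 (0.58). Chac1, at 7.88, 7.56 and 6.69 CPM, was below VillinCreERT2 (26.1, 27.4 and 23.0 CPM, log2 fold change -1.79 ± 0.10) and CDK19-deficient organoids (12.7, 12.4 and 13.7 CPM, -0.81 ± 0.11) but did not differ past the test from C57BL/6 (6.85, 7.61 and 6.45 CPM, 0.08 ± 0.12, adjusted p = 0.601). Ddit3 read 10.4, 11.1 and 10.5 CPM in CDK8/19-deficient and 15.9, 17.4 and 16.5 CPM in CDK19-deficient organoids (log2 fold change -0.64 ± 0.09, edgeR adjusted p = 2.31e-06), the other gene called lower there. Psph averaged 30.0 ± 0.974 CPM in VillinCreERT2 and between 12.4 and 13.8 CPM in the 3 groups of the second form.

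**Figure D4:**
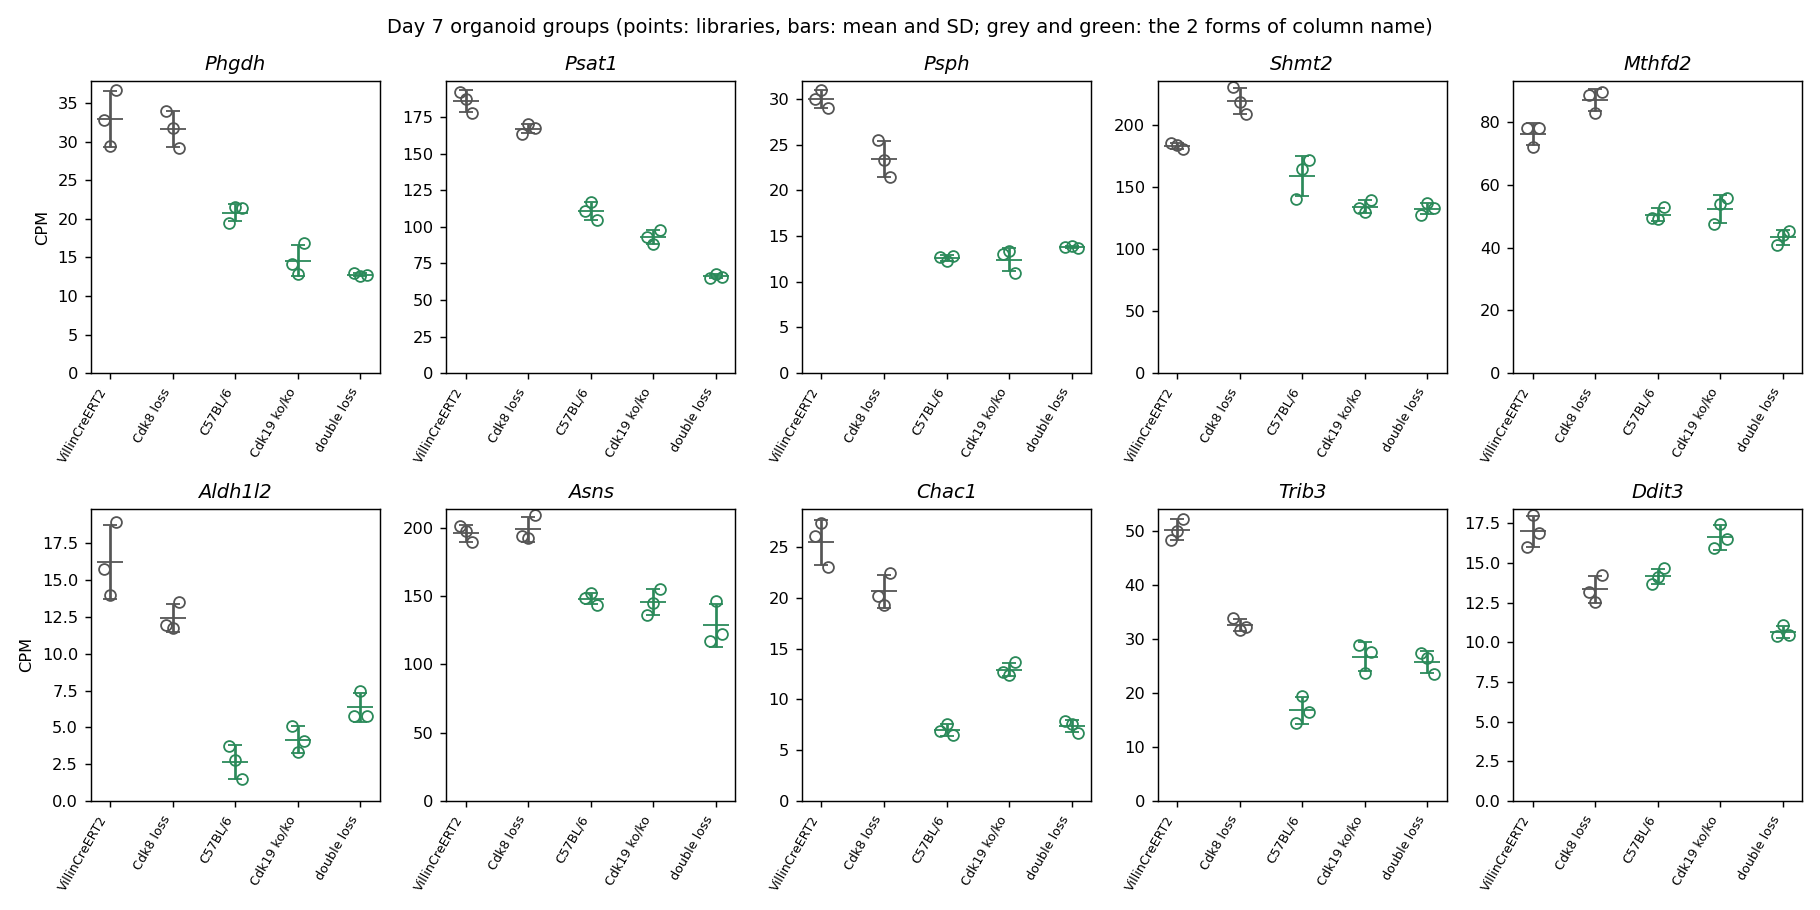
CPM (y axes, linear, starting at 0) of the 10 genes in the 5 organoid groups collected at day 7 (x axis), with circles for libraries and bars for the mean and SD of 3. Grey marks the groups of the first form of column name and green those of the second. In 9 of the 10 genes, all but Ddit3, every green library lies below every grey library, and how many of all genes do so was not counted.

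Loss of a single kinase moved few of the genes past both cutoffs. In CDK8-deficient organoids only Trib3 was called against VillinCreERT2, at 33.8, 31.6 and 32.2 against 48.3, 50.0 and 52.1 CPM (log2 fold change -0.62 ± 0.08, edgeR adjusted p = 1.93e-06), with 0 of 10 higher (background 4.34% lower, 2.9% higher). The other genes were under the fold cutoff, from -0.39 (Aldh1l2) to 0.26 (Shmt2). Some of these smaller differences had no overlap between the groups, such as those of Psph (-0.35) and Shmt2. Against the mean of VillinCreERT2 and C57BL/6, which crosses the forms, Trib3 was not called (0.17, adjusted p = 0.0781), and Aldh1l2 (0.92) and Chac1 (0.63) were called higher. CDK19-deficient organoids were higher than C57BL/6 in 2 of the 10 genes and lower in 0 (background 2.86% higher, 2.39% lower). Chac1 read 12.7, 12.4 and 13.7 against 6.85, 7.61 and 6.45 CPM (log2 fold change 0.89 ± 0.11, edgeR adjusted p = 9.68e-07), and Trib3 read 28.8, 23.7 and 27.5 against 14.4, 19.4 and 16.4 CPM (log2 fold change 0.67 ± 0.09, edgeR adjusted p = 9.07e-06), whose fold fell under the cutoff without C57BL/6 replicate 1 (0.58). Aldh1l2 was called higher without that library (0.97), by DESeq2 and with no filter. Both comparisons stay within 1 form of column name. In CDK8-deficient organoids the enterocyte markers summed to 8255 to 9666 CPM, against 11776 to 14218 CPM in VillinCreERT2. Paneth markers were also lower, at 2452 to 2655 against 2794 to 2912 CPM. Proliferation markers (1293 to 1416 against 1028 to 1101 CPM) and acinar markers (40.9 to 45.9 against 17.4 to 28.4 CPM) were higher, and stem markers overlapped. The part of these markers in the 10 genes was not tested. Phgdh was lower in CDK19-deficient organoids (log2 fold change -0.51 ± 0.10, adjusted p = 5.95e-04) without reaching the fold cutoff, which it passed without CDK19-deficient replicate 3 (-0.63). The double loss minus the sum of the single losses was lower than 0 past both cutoffs for 8 of the 10 genes and higher for 0 (background 8.34% lower, 11.3% higher), a contrast that again crosses the forms. Asns was under the fold cutoff without C57BL/6 replicate 3, CDK8-deficient replicate 3, CDK19-deficient replicate 3, or CDK8/19-deficient replicate 1 or 3 (-0.57 to -0.54), and Ddit3 past it without CDK8-deficient replicate 2 (-0.60).

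In vivo, 0 of the 10 genes were called between CDK8/19-deficient and VillinCreERT2 IECs by edgeR or by DESeq2, against 0.646% of all genes higher and 0.856% lower and with 3017 genes at an unadjusted p under 0.05. Trib3 read 11.6, 12.1 and 13.6 CPM in CDK8/19-deficient and 17.7, 18.2 and 16.2 CPM in VillinCreERT2 IECs (log2 fold change -0.48 ± 0.12, adjusted p = 0.102). Shmt2 read 24.5, 32.4 and 23.7 and 35.0, 32.6 and 37.9 CPM (-0.39 ± 0.14, 0.206). In both genes the groups did not overlap, and the same held in the other direction for Psph, at 8.21, 5.98 and 7.55 against 5.37, 4.89 and 5.72 CPM (log2 fold change 0.45 ± 0.18, adjusted p = 0.233). Phgdh read 5.29, 5.43 and 3.63 and 3.34, 4.51 and 4.81 CPM, and Psat1 11.4, 9.25 and 7.26 and 11.6, 9.61 and 10.4 CPM. Aldh1l2 and Chac1 had 5 to 12 and 8 to 23 reads per library and an SE of their log2 fold changes of 0.50 and 0.50. These preparations held other cells: the 8 immune markers summed to 758 to 1590 CPM in CDK8/19-deficient and 47.4 to 629 CPM in VillinCreERT2 IECs and the 6 mesenchymal markers to 452 to 960.3 and 12.8 to 879.7 CPM. The 7 Paneth markers summed to 991 to 2186 and 3868 to 6383 CPM, with 4 of 7 called lower, and the 6 stem markers to 314 to 517 and 750.1 to 1048 CPM, with 2 of 6 called lower. The 6 markers of pancreatic acinar cells summed to 6.57 to 68.6 and 0.481 to 6.19 CPM, with 0 of the 5 tested called. Their part in the values of the 10 genes was not tested.

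**Figure D5:**
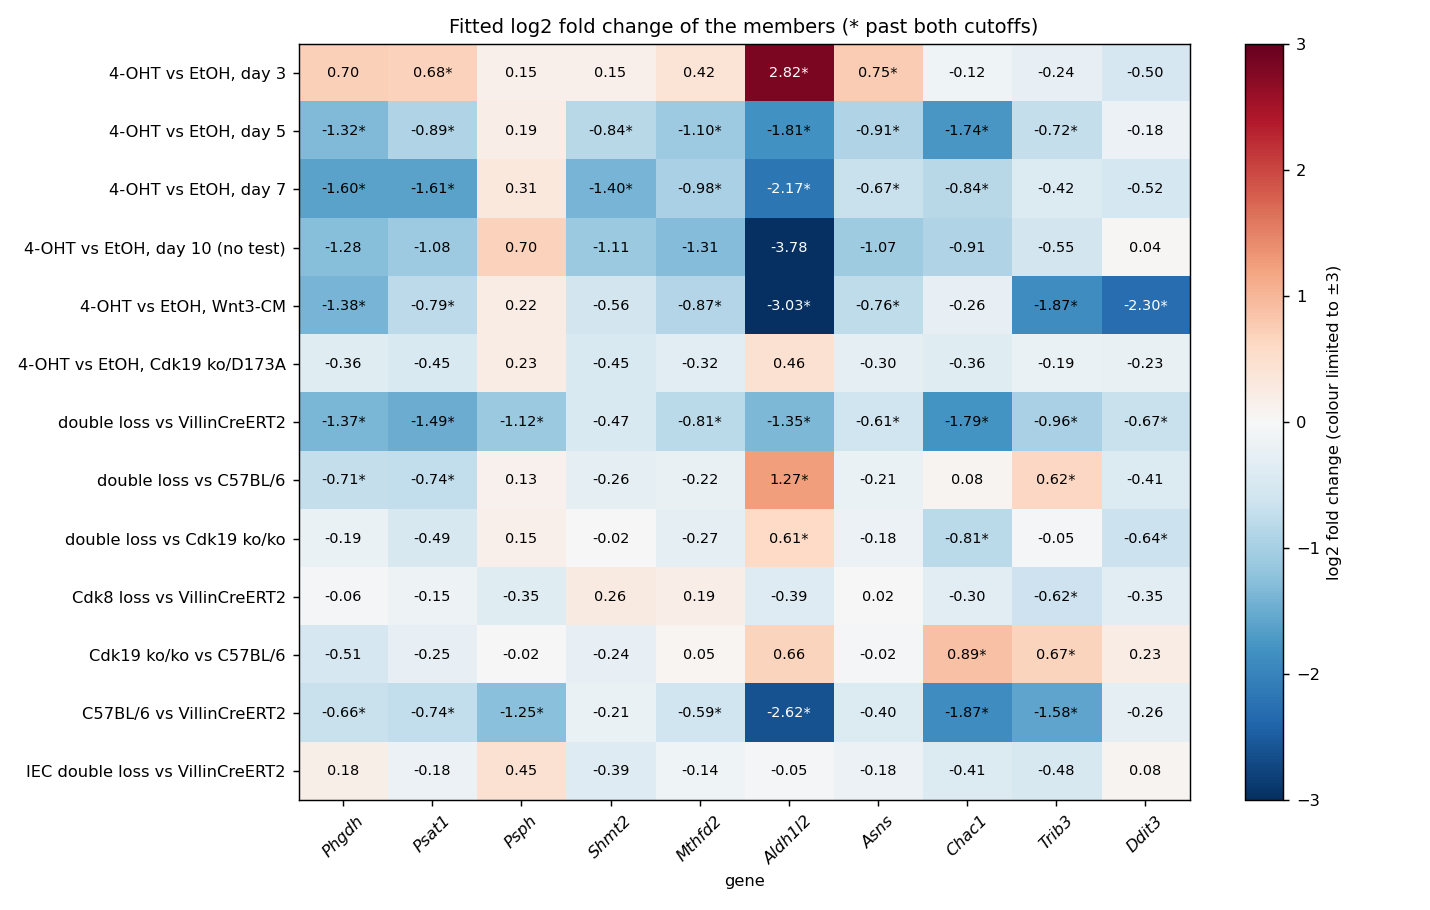
Fitted log2 fold change (cell text and color, limited to ±3) of each gene (columns) in 13 comparisons (rows), with a star past both cutoffs and no star in the day 10 row, which was not tested. Columns Phgdh to Asns turn from red to blue between the day 3 and day 5 rows except for Psph, and the Cdk19 ko/D173A and IEC rows carry no star.

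Beyond these 10, a list of 91 further genes of folate metabolism, ATF4 and its regulators, bZIP partners, amino acid uptake, tRNA charging, stress effectors and endoplasmic reticulum chaperones was counted in each comparison. At day 3, 15 of 88 tested genes were higher and 4 lower, beside 6.42% and 5.95% of all genes. At day 5, 3 were higher and 16 lower (all genes 8.58% and 4.62%), and at day 7 again 3 higher and 16 lower (all genes 9% and 9.25%). In Wnt3-CM, 5 of 87 were higher and 35 lower (all genes 9.45% and 7.42%). With kinase-dead CDK19, 2 of 89 were higher and 8 lower (all genes 6.05% and 6.25%), the lower share being near that of all genes, and in IECs 0 of 87 were called by edgeR. The response at day 5 was lower than at day 3 for 27 of the 88 and higher for 5 (all genes 9.01% and 11.2%). In the 5 organoid groups of day 7 the direction of the 88 depended on the control. In CDK8/19-deficient organoids 7 were higher and 19 lower than in VillinCreERT2 (all genes 11.5% and 7.95%), but 10 higher and 4 lower than in C57BL/6 (all genes 8.66% and 9.41%) and 6 higher and 3 lower than in CDK19-deficient organoids (all genes 6.33% and 4.26%). C57BL/6 organoids had 2 higher and 18 lower than VillinCreERT2 (all genes 15.5% and 10.9%). The shares over all genes apply to the shorter lists named next as well. Of the 12 chaperones of the endoplasmic reticulum, edgeR called 1 lower at day 3 (Herpud1, -0.69), 0 at day 5 and day 7 and 1 higher in Wnt3-CM (Sdf2l1, 0.59).

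Of 10 genes of amino acid uptake, 3 were higher and 0 lower at day 3, 1 higher and 3 lower at day 5, 0 higher and 3 lower at day 7, and 0 higher and 7 of 9 lower in Wnt3-CM. The shares of all genes higher and lower were 6.42% and 5.95% at day 3 and 8.58% and 4.62% at day 5. They were 9% and 9.25% at day 7 and 9.45% and 7.42% in Wnt3-CM. Slc7a11, which imports cystine, was at 6.06 ± 1.49 CPM with EtOH and 26.6 ± 2.33 CPM with 4-OHT at day 3 (log2 fold change 2.13, edgeR adjusted p = 1.54e-05) and at 27.7 ± 5.44 and 8.86 ± 3.21 CPM at day 7 (-1.64, 9.28e-05). In Wnt3-CM it fell from 109.6 ± 9.78 to 39.6 ± 1.43 CPM (-1.47, 9.47e-13). Slc7a5, a transporter of large neutral amino acids, was lower at day 5 (-1.23), day 7 (-1.22) and in Wnt3-CM (-1.36). Its response was higher with kinase-dead CDK19 than with Cdk19 ko/ko by 0.63 (edgeR adjusted p = 0.00762).

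Pycr1, which makes proline in mitochondria, was higher at day 3 (log2 fold change 0.71, edgeR adjusted p = 2.02e-04) and lower at day 5 (-1.10, 3.80e-06), day 7 (-1.04, 3.25e-06) and in Wnt3-CM (-1.99, 2.60e-13). It was lower with kinase-dead CDK19 too (-0.78, 0.00154). Of 13 cytosolic aminoacyl-tRNA synthetases, 1 was higher and 0 lower at day 3 (Aars, 0.74), 2 lower at day 5 (Vars, -0.62, and Gars, -0.59), 3 lower at day 7 and 9 lower in Wnt3-CM, where Eprs (-1.16) and Wars (-1.13) fell most. The day 3 count lies near the 6.42% of all genes called higher there. All genes called lower were 4.62% at day 5, 9.25% at day 7 and 7.42% in Wnt3-CM. Of 6 transcription factors of the stress response, 2 were higher and 2 lower at day 3, 1 higher and 3 lower at day 5, 1 higher and 2 lower at day 7, and 1 higher and 4 lower in Wnt3-CM. Atf3 was higher at day 3 (1.20) and lower at day 5 (-1.30) and day 7 (-0.70), and Atf5 was lower at all 3 days (-0.74, -1.00 and -0.65). Batf2 went the other way, higher at day 5 (1.47), day 7 (0.86) and in Wnt3-CM (0.97), and Nupr1 was higher at day 3 (0.98) and lower in Wnt3-CM (-1.68). The stress cytokine Gdf15 was higher at day 3 (1.13) and lower at day 5 (-0.72).

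Transcripts of Atf4 itself were under the fold cutoff at every tested day of the time course. Atf4 read 388, 371 and 373 CPM with EtOH and 352, 353 and 343 CPM with 4-OHT at day 3, 469, 476 and 465 and 339, 342 and 401 CPM at day 5 (log2 fold change -0.38 ± 0.08, edgeR adjusted p = 2.42e-04), and 561, 490.3 and 502 and 521, 415 and 409 CPM at day 7 (-0.21 ± 0.08, 0.0257), under the fold cutoff at each day. In Wnt3-CM it was lower, from 742, 767 and 749 to 542, 456 and 482 CPM (log2 fold change -0.61 ± 0.07, edgeR adjusted p = 4.74e-07). With kinase-dead CDK19 it did not pass the test (-0.02 ± 0.08, adjusted p = 0.850). RNA-Seq does not measure ATF4 protein, whose amount is set by translation.

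Within folate metabolism, Aldh1l2 and its cytosolic counterpart Aldh1l1 moved in opposite directions at day 7. Aldh1l1 stood at 55.6 ± 4.55 CPM with EtOH and 118 ± 10.1 CPM with 4-OHT at day 7 (log2 fold change 1.09 ± 0.07, edgeR adjusted p = 1.25e-12) and at 50.2 ± 2.97 and 99.5 ± 8.32 CPM in Wnt3-CM (0.99 ± 0.08, 5.47e-10). It was higher in CDK8/19-deficient organoids against VillinCreERT2 (0.94 ± 0.08), C57BL/6 (1.32 ± 0.08) and CDK19-deficient organoids (1.35 ± 0.08). In the last of these comparisons and against C57BL/6, Aldh1l2 was higher as well (0.61 and 1.27), and the directions were opposite against VillinCreERT2 (-1.35 for Aldh1l2). With kinase-dead CDK19 it stood, with EtOH and 4-OHT, at 109.9 ± 17.2 and 110.3 ± 20.9 CPM, and the difference from the Cdk19 ko/ko response was -1.09 (adjusted p = 0.00216). Shmt1, the cytosolic counterpart of Shmt2, was lower at day 7 (-1.10), as was the cytosolic trifunctional enzyme Mthfd1 (-0.87). Mthfd1l, the mitochondrial formate producer, was higher at day 3 (0.90) and lower in Wnt3-CM (-0.60).

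Over the 24 time course libraries, the 10 genes did not vary as a unit. Phgdh and Psat1 followed each other (Pearson r = 0.97) and so did Mthfd2 and Asns (r = 0.94), while the r with the mean of the 10 genes was 0.97 for Mthfd2 and 0.92 for Shmt2 but 0.18 for Ddit3 and -0.35 for Psph. The genes outside the 10 most like Aldh1l2 over these libraries were Lonp1 (0.94), Mthfd1l (0.93), Cand1 (0.93), Senp1 (0.92) and Runx1 (0.91). Those most like the mean of the 10 genes were Kpnb1 (0.95), Abce1 (0.95), Slc7a5 (0.95), Ndc1 (0.95) and Cse1l (0.94). Without the 6 day 10 libraries, the 5 nearest to Aldh1l2 were Rad18 (0.96), Limk1, Tcf7, Kdelr3 and Pkp1, and those nearest to the mean were Gars (0.97), Abce1, Cse1l, Kpnb1 and Gm13461. These values are descriptions over 24 or 18 libraries that share days, arms and scaling.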

How the data were processed

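The values are raw whole-number read counts per gene that the authors deposited as tables. The submitters' processing notes name STAR 2.5.2, featureCounts, Subread 1.6.3 and mm10, and the strand setting of the counting is not given in the sources used here. Libraries were polyA-selected. Of the columns, 57 were used, matched by name except for those of the Cdk19 ko/D173A organoids, which were assigned by elimination. A further 6 per-sample IEC columns, whose names the labels do not explain, were not used.

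The 5 day 7 organoid groups, the time course, IECs, Wnt3-CM and Cdk19 ko/D173A organoids were fitted separately with edgeR 4.0.16 in R 4.3.3 (filterByExpr, TMM, robust quasi-likelihood, Benjamini-Hochberg over all genes, cutoffs adjusted p 0.05 and fold 1.5), with a joint fit for the kinase-dead response. SE is the log2 fold change divided by the square root of F. Alternatives were DESeq2 1.42.0, limma-voom (limma 3.58.1), other scaling factors and filters, a replicate block, other controls and leaving out each library. The fits were tested on simulated counts. The 10 genes and the pathway and marker lists were chosen with earlier results of these data known. Named beside the 10 genes are Atf4, the targeted genes, and up to 2 rises and 2 falls per list past both cutoffs with at least 50 counts in the higher group. Genes like Aldh1l2 or the mean were the 5 nearest by Pearson r among genes of mean CPM of at least 1. Promoter windows are from RefSeq (GRCm38.p6). Intervals cover the spread between libraries only, and depth limits Aldh1l2 most.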

Additional observations from a re-analysis of the deposited data

Results flagged for a closer look

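Several of the 10 genes stood out because the difference between 2 responses itself passed the test. The 4-OHT response at day 5 minus that at day 3, on the log2 scale, was -2.02 for Phgdh, -1.58 for Psat1, -0.99 for Shmt2, -1.52 for Mthfd2, -4.63 for Aldh1l2, -1.66 for Asns and -1.62 for Chac1. The response of Chac1 differed again between day 5 and day 7, by 0.89, a call lost without any 1 of several libraries, as given above. The 4-OHT response at day 7 differed between Cdk19 ko/D173A and Cdk19 ko/ko organoids by 2.64 for Aldh1l2, 1.24 for Phgdh, 1.16 for Psat1, 0.96 for Shmt2 and 0.65 for Mthfd2. The calls of Phgdh and Mthfd2 were lost without 4-OHT replicate 2 of the Cdk19 ko/ko arm. Loss of both kinases minus the sum of the single losses gave -0.80 for Phgdh, -1.08 for Psat1, -0.74 for Psph, -1.06 for Mthfd2, -1.63 for Aldh1l2, -0.60 for Asns, -2.37 for Chac1 and -1.01 for Trib3, and that contrast crosses the 2 forms of column name. Asns fell under the fold cutoff there without any 1 of several libraries.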

How the results depend on the processing

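Leaving out 1 library at a time left 1233 of 1320 log2 fold changes of the 10 genes in their direction and on their side of the cutoffs. The other alternatives kept 1347 of 1400. Counts of called genes are not part of these numbers and are given next. The count of called genes among the 10 ranged over the left-out libraries from 3 to 5 for the kinase-dead against the Cdk19 ko/ko response, 0 to 1 for the kinase-dead response, 0 to 3 for the day 7 minus day 5 response and 2 to 5 for EtOH day 5 against day 3. Other settings moved the count for the day 7 minus day 5 response to 2 (at least 10 counts in every library, limma-voom, or upper quartile factors), for EtOH day 5 against day 3 to 2 (at least 10 counts) and for EtOH day 7 against day 5 to 1 (no filter, Aldh1l2). With the mean of VillinCreERT2 and C57BL/6 as control, the count was 2 for CDK8-deficient and 3 for CDK8/19-deficient organoids, and with C57BL/6 or CDK19-deficient organoids as the control of the latter it was 4 or 3 in place of 9. Directions turned with the control. CDK8-deficient organoids against the mean control gave 0.92 for Aldh1l2, 0.63 for Chac1, 0.27 for Phgdh, 0.22 for Psat1, 0.27 for Psph and 0.17 for Trib3. CDK8/19-deficient organoids gave 1.27, 0.0806, 0.13 and 0.62 against C57BL/6 for Aldh1l2, Chac1, Psph and Trib3, and 0.61 and 0.15 against CDK19-deficient organoids for Aldh1l2 and Psph. Aldh1l2 in IECs turned to 0.0067 with upper quartile factors. Other directions turned when a library was left out, with ranges of -0.29 to 0.25 (Aldh1l2), -0.73 to 0.0075 (Chac1) and -0.14 to 0.18 (Ddit3) in IECs; -1.21 to 0.0510 (Aldh1l2), -0.0360 to 0.39 (Asns), -0.12 to 0.35 (Mthfd2), -0.70 to 0.0362 (Phgdh) and -0.0219 to 0.24 (Psph) for day 7 minus day 5; -0.0152 to 0.0434 (Asns) and -0.13 to 0.0274 (Phgdh) for CDK8-deficient and -0.0733 to 0.0287 (Asns) and -0.0648 to 0.0646 (Psph) for CDK19-deficient organoids; -0.0412 to 0.0125 (Shmt2) and -0.13 to 0.0165 (Trib3) for CDK8/19-deficient against CDK19-deficient organoids; and -0.26 to 0.0467 for Chac1 at day 3, -0.20 to 0.0296 for Ddit3 in EtOH day 5 against day 3, -0.0625 to 0.0868 for Psph in EtOH day 7 against day 5, -0.0986 to 0.16 for Psph in the day 5 minus day 3 response and -0.17 to 0.0095 for Psph in the kinase-dead difference. The cause was not tested.

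In no comparison was the correlation of the deviations above 0.1 for every same-numbered pair (in IECs it ran from -0.41 to 0.21), so numbers were not taken as pairs. With the replicate number as a replicate block, the counts were 4 in place of 3 at day 3 and 3 in place of 4 for EtOH day 5 against day 3, and no other count changed. For Wnt3-CM, the kinase-dead response and the joint fit the labels do not tie the numbers in the column names to samples. A replicate block on those numbers, added after seeing the data, left the counts at 7, 0 and 5 and changed no call of the 10 genes. Every sample correlated best with its own number in Wnt3-CM (lowest r 0.095), in C57BL/6 against VillinCreERT2, and in CDK8/19-deficient against C57BL/6 or CDK19-deficient organoids, a hint from the data and not from the design. Over all genes, the calls in IECs went from 228 to 859 with DESeq2, 1103 with no filter and 8 with the block, and from 3 (without VillinCreERT2 replicate 3) to 1566 (without VillinCreERT2 replicate 2). Those of EtOH day 7 against day 5 went from 88 to 139 with DESeq2, 184 with no filter, 12 in a fit of the groups compared, and from 3 (without EtOH replicate 1 at day 5) to 164 (without EtOH replicate 3 at day 7). With at least 10 counts in every library, calls went from 794 to 476 for CDK19-deficient organoids, 1848 to 1187 for EtOH day 5 against day 3 and 2040 to 1303 for 4-OHT at day 5.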

Other observations

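Some folate genes outside the 10 had their own course. Ggh, the lysosomal hydrolase that trims the glutamate tail of folates, stood at 72.0 ± 13.5 CPM in CDK8/19-deficient organoids at day 7 against 9.65 ± 2.72 CPM in VillinCreERT2, 10.9 ± 1.01 CPM in C57BL/6 and 14.5 ± 1.75 CPM in CDK19-deficient organoids (means and SD of 3). Its log2 fold change was 2.90 ± 0.24, 2.72 ± 0.25 and 2.32 ± 0.24 against these 3 controls, with edgeR adjusted p of 1.49e-06, 2.69e-06 and 1.50e-05, and 1.11 ± 0.26 in CDK8-deficient organoids. In the time course line at day 7, Ggh read 4.65 ± 1.68 CPM with EtOH and 5.98 ± 0.941 CPM with 4-OHT (0.37 ± 0.18, adjusted p = 0.100), although the genotype is the same, while at day 3 it was called higher with 4-OHT (0.60 ± 0.18, adjusted p = 0.00820). Amt, the aminomethyltransferase of the mitochondrial glycine cleavage system, was higher with 4-OHT at day 5, at 5.78 ± 0.903 against 1.59 ± 0.604 CPM (1.87 ± 0.30, adjusted p = 2.64e-05) after it had been lower with 4-OHT at day 3 (-0.70 ± 0.26, adjusted p = 0.0406) and the EtOH arm had fallen from day 3 to day 5 (-2.04 ± 0.30, adjusted p = 1.13e-05). Its response at day 7 differed from that at day 5 by -2.17 ± 0.43. Cth, which makes cysteine, was higher with 4-OHT in Cdk19 ko/D173A organoids (1.06 ± 0.13, adjusted p = 5.57e-04), and the difference from the Cdk19 ko/ko response was 1.43 ± 0.17. In 1 EtOH library at day 7 the 6 mesenchymal markers summed to 36.5 CPM, against 1.11 and 1.27 CPM in the other two.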
